A study of Mus musculus with 12 samples.

Results

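The transcripts described here are those of the mouse mitochondrial genome, taken as every gene whose identifier in the deposited count table begins with mt-. The rule gave 37 of 55291 genes: 13 mRNAs, 2 rRNAs (mt-Rnr1 and mt-Rnr2) and 22 tRNAs. The table places all 37 on chromosome M of the mm10 build (GRCm38), between bases 1 and 15422, and their coordinates were identical in the GENCODE M21 annotation. No value measured in these libraries entered the rule.

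The libraries were made from total liver RNA of male mice of the inbred strain C57BL/6 that entered the study at 6 weeks of age and had 1 week of adaptation. NC mice received a normal diet, and the other mice a high-fat diet for 8 weeks, after which they were split into the HFD group, for which the labels give no exercise, and the HFD+AE and HFD+RE groups, which exercised for at least 12 weeks; no transgene or deletion is labelled, and AE and RE are given only as abbreviations of 2 kinds of exercise. There were 3 libraries a group, which carry the labels' numbers 2, 4 and 5 in NC, 1, 2 and 3 both in HFD and in HFD+AE, and 3, 4 and 5 in HFD+RE. The labels do not say whether these stem from different animals. The p-values therefore cover only the spread between the samples at hand, which may be technical.

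Mitochondrial DNA is a small circle present in many copies in each cell. It is read from promoters in its control region into long RNAs that span most of a strand, and these precursors are cut into single transcripts mostly at the tRNAs that lie between the other genes. The 2 rRNAs, which lie first behind the heavy-strand promoter, form the mitochondrial ribosome with imported proteins, the tRNAs serve that ribosome, and the mRNAs encode core subunits of respiratory complexes I, III and IV and of the ATP synthase (complex V), whose other subunits come from nuclear genes. The liver holds many mitochondria, which oxidise fatty acids there.

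Library totals lay between 44373214 and 77665729 counts. Hepatocyte markers stood at a summed 69800 to 149000 CPM (counts normalised to the depth of each library, with TMM scaling), and markers of muscle, heart and fat at no more than 0.125 CPM, with 4 or 5 of their 7 genes at 0 in each group. Several libraries stood apart from their group on the first principal component of log2 CPM. HFD+AE 3 had a score of 14 where the other HFD+AE libraries had -40.4 and -36.9, and HFD+RE 3 had -36.6 where the other HFD+RE libraries had 50.4 and 52.6. By chi-square per degree of freedom between counts, HFD+RE 3 was nearer to HFD+AE 1 and 2 (90.9 and 97.2) than to HFD+RE 4 and 5 (418 and 412), and HFD+AE 3 was nearer to HFD+RE 4 (123) than to HFD+AE 1 and 2 (348 and 273). Each of these 2 libraries thus lay closer to a library of the other exercise group than to its own, and the sources used here do not allow a check for exchanged labels. HFD+AE 3 was also nearer to HFD 1 and 2 (261 and 180) than to HFD+AE 1 and 2. HFD+RE 5 lay about as near to HFD 1 (133) as to HFD+RE 4 (138). The HFD group was not uniform either: HFD 2 had a score of 23 where HFD 1 and 3 had 67.4 and 80.8. HFD 2 was nearest to HFD 1 (107). It lay farther from HFD 3 (253) than from every library of the exercise groups (162 to 215). Groups follow the labels throughout, and each exercise-group value depends on them. The main counts of calls below are given with and without HFD+AE 3 and HFD+RE 3. That pair was singled out by these same counts, so the calls without it are a description and no separate support. The rank correlation of level with gene length, which moves with RNA quality, was 0.394 to 0.407 in NC, 0.352 to 0.372 in HFD, 0.365 to 0.419 in HFD+AE and 0.335 to 0.419 in HFD+RE. With it as a covariate, 3 of the 5 calls in HFD against NC described below were left. In whole liver, fewer cells of a type and less RNA per cell cannot be told apart.

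Counts along the mitochondrial genome were very uneven, and a block of 6 neighbouring mRNAs was nearly empty. Per kilobase of gene, and as a share of the summed level of the 15 mRNAs and rRNAs, mt-Co1 (subunit 1 of cytochrome c oxidase) was highest in every group, with a mean of 29.0% over the 12 libraries and a range of 22.7 to 36.7%. It was followed by mt-Cytb (the cytochrome b subunit of complex III) at 18.1%, mt-Nd2 at 11.9%, mt-Nd1 at 11.0%, mt-Rnr2 at 8.1%, mt-Nd5 at 6.45%, mt-Nd4 at 6.33%, mt-Rnr1 at 5.86% and mt-Nd6 at 2.69%. The ranges over libraries of mt-Nd2 (10.3 to 13.9%) and mt-Nd1 (9.68 to 13.0%) overlapped, as did those of mt-Rnr2 (4.3 to 14.2%), mt-Nd5 (4.4 to 8.4%), mt-Nd4 (5.63 to 6.78%) and mt-Rnr1 (4.26 to 8.12%).

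The 6 genes from mt-Co2 to mt-Nd4l came far below. Their mean levels per kilobase were 0.185% for mt-Atp6, 0.135% for mt-Co2, 0.12% for mt-Co3, 0.0876% for mt-Nd4l, 0.0487% for mt-Nd3 and 0.00272% for mt-Atp8. The highest value of these 6 in any library, 0.682% for mt-Atp6 in NC 5, lay below the lowest value of the other 9 genes, 1.88% for mt-Nd6 in NC 2. Summed, the 6 genes supplied between 0.152 and 0.584% of the counts of the 13 mRNAs, and mt-Atp8 had only 2 to 114 counts in a library. Their grouping was made after these values were seen.

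**Figure D1:**
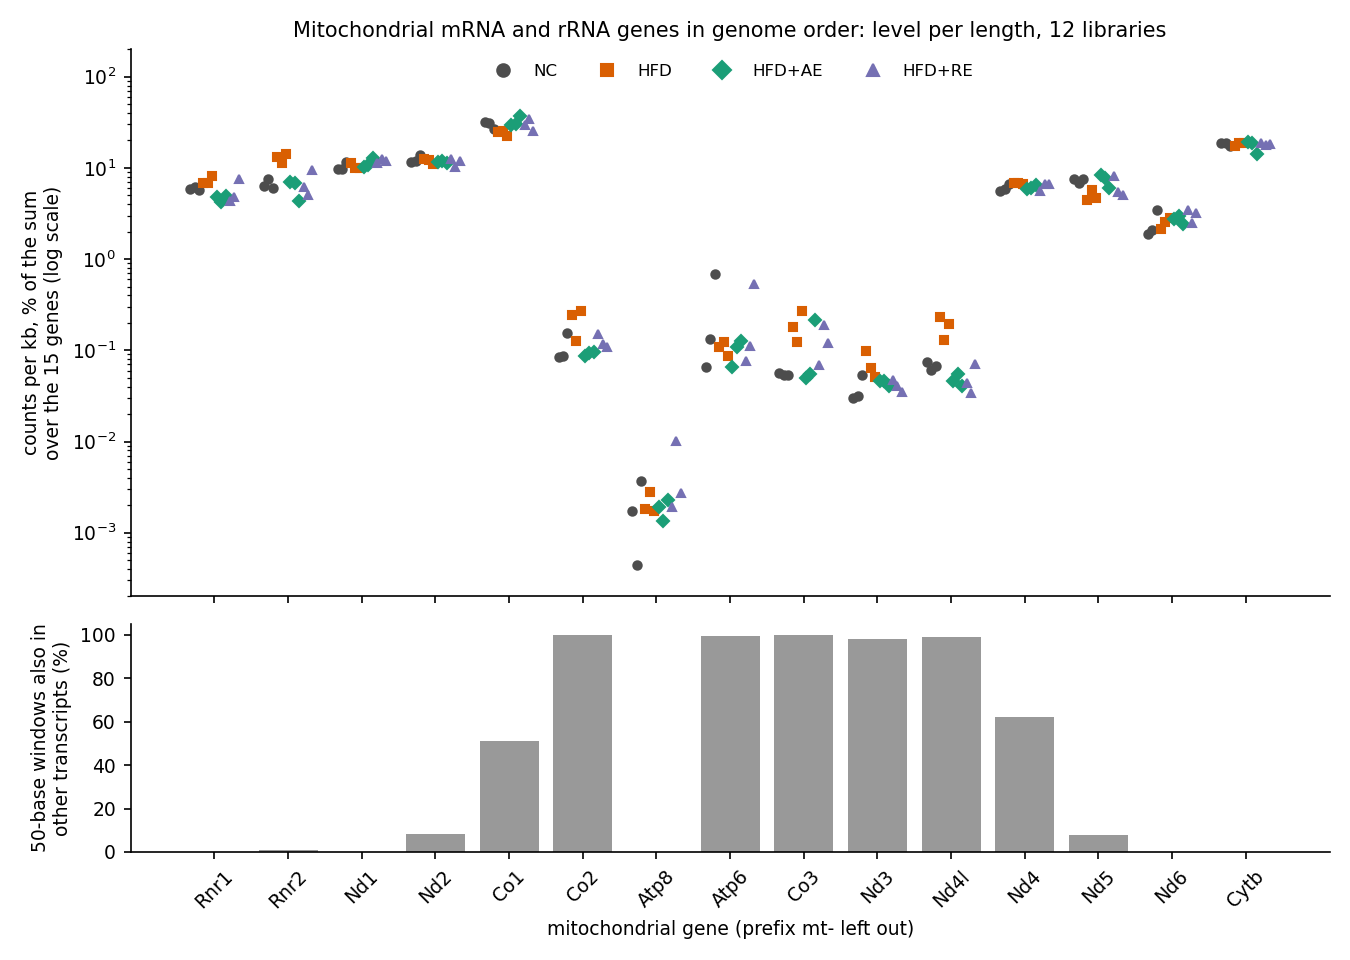
Level per length of the 13 mRNAs and 2 rRNAs in genome order (upper panel, log axis, each point 1 library, percent of the summed counts per kb) and the percent of each gene's 50-base windows that also occur in another annotated transcript (lower panel). The 6 genes from mt-Co2 to mt-Nd4l all lie below 0.682% in each library, and 5 of them have at least 98% of their windows in other transcripts.

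The same block has near-identical copies in the nuclear genome. In the GENCODE M21 annotation, 7 pseudogenes on the minus strand of chromosome 1 (GRCm38, bases 24611535 to 24616197) follow mitochondrial DNA from within mt-Co1 to within mt-Nd4. Gm28661 is identical to bases 1 to 681 of mt-Co2, Gm10925 to bases 1 to 678 of mt-Atp6, Gm28437 to bases 1 to 783 of mt-Co3, Gm10222 to bases 1 to 294 of mt-Nd4l and Gm28439 to bases 1 to 876 of the 1378 bases of mt-Nd4. Gm28438 has 1 difference from mt-Nd3 over 345 bases, and Gm29216 has 6 from bases 1054 to 1545 of mt-Co1. As a result, 100% of the 50-base windows of mt-Co2, 99.9% of those of mt-Co3, 99.5% of mt-Atp6, 98.8% of mt-Nd4l and 98% of mt-Nd3 also occur in another annotated transcript. The share was 62.2% for mt-Nd4, 51.1% for mt-Co1, 8.19% for mt-Nd2, 7.61% for mt-Nd5 and 1.04% for mt-Rnr2, and 0% for mt-Rnr1, mt-Nd1, mt-Nd6, mt-Cytb and mt-Atp8. mt-Atp8, the lowest of all, lies between mt-Co2 and mt-Atp6 and overlaps the latter by 43 bases; only annotated transcripts were searched, and nuclear sequence between them was not analysed here.

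How the authors treated reads that map to several places is not given in the sources used here, and the part of that choice in the low counts was not tested. The counts of the 7 chromosome 1 copies, summed, ran from 6139 to 28542 in a library, against 4529 to 34542 for the 6 mitochondrial genes. The gene with the strongest call, mt-Nd4l (chrM:9877-10173, plus strand), is shown whole as an example of how little separates a gene from its copy; capitals mark the 3 bases without a counterpart in Gm10222. For mt-Nd3 (chrM:9459-9806, plus strand) and Gm28438 (chr1:24612775-24613119, minus strand), the first 33 bases hold their only difference, T3C (mt-Nd3 has T at position 3, counted from its first base), in capitals. Sequences are from the GENCODE M21 transcripts.
mt-Nd4l: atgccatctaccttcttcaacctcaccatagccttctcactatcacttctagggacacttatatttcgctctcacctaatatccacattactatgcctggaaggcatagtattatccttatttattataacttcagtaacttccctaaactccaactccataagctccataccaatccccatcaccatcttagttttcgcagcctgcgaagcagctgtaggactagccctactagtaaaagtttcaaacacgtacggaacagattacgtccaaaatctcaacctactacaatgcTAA
mt-Nd3: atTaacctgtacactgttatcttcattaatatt
Gm28438: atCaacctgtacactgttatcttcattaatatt

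mt-Rnr2 (chrM:1094-2675, plus strand), the 16S rRNA, has 1 such stretch. Bases 1009 to 1073, in capitals within their surroundings (bases 969 to 1113), also occur in Gm20594, which had 0 counts in all 12 libraries. The rest of mt-Rnr2 had no 50-base match in another annotated transcript.
mt-Rnr2: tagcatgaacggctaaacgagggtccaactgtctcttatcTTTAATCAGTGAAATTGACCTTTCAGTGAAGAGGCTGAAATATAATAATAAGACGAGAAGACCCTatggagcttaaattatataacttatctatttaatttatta

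The shares of library counts differed between the groups most for the rRNAs. The 13 mRNAs held 5.20, 5.17 and 6.85% of the counts of NC 2, 4 and 5, and 8.98, 7.49 and 10.5% in HFD 1, 2 and 3. They held 6.31, 5.99 and 8.66% in HFD+AE 1, 2 and 3. For HFD+RE 3, 4 and 5 the shares were 5.74, 10.4 and 8.12%. All HFD libraries lay above all NC libraries, a ratio of means of 1.57, while both exercise groups overlapped with NC and with HFD. Group means were 5.74% ± 0.959 for NC, 9.0% ± 1.53 for HFD, 6.99% ± 1.46 for HFD+AE and 8.10% ± 2.35 for HFD+RE (SD, n = 3).

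The 2 rRNAs held 0.708, 0.818 and 0.924% of the counts in NC 2, 4 and 5, and 2.45, 1.76 and 3.26% in HFD 1, 2 and 3. HFD+AE 1, 2 and 3 had 0.867, 0.771 and 0.842%. HFD+RE 3, 4 and 5 had 0.685, 1.12 and 1.71%. Each HFD library was above every library of the other 3 groups, with a ratio of means of 3.05 to NC, and the HFD+AE libraries lay within the NC range. HFD+RE spread from below the lowest NC library to just below the lowest HFD library. The SDs were 0.108 percentage points in NC, 0.755 in HFD, 0.0498 in HFD+AE and 0.517 in HFD+RE.

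The 22 tRNAs held no more than 0.0154% of any library. Their shares were 0.0105, 0.0116 and 0.0116% in NC 2, 4 and 5, and 0.0108, 0.00979 and 0.0107% in HFD 1, 2 and 3. The HFD+AE libraries had 0.00802, 0.00916 and 0.0154%, and the HFD+RE libraries 0.00798, 0.0149 and 0.0114%, in library order. The 4 groups overlapped, with HFD+AE 3 and HFD+RE 4 highest.

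**Figure D2:**
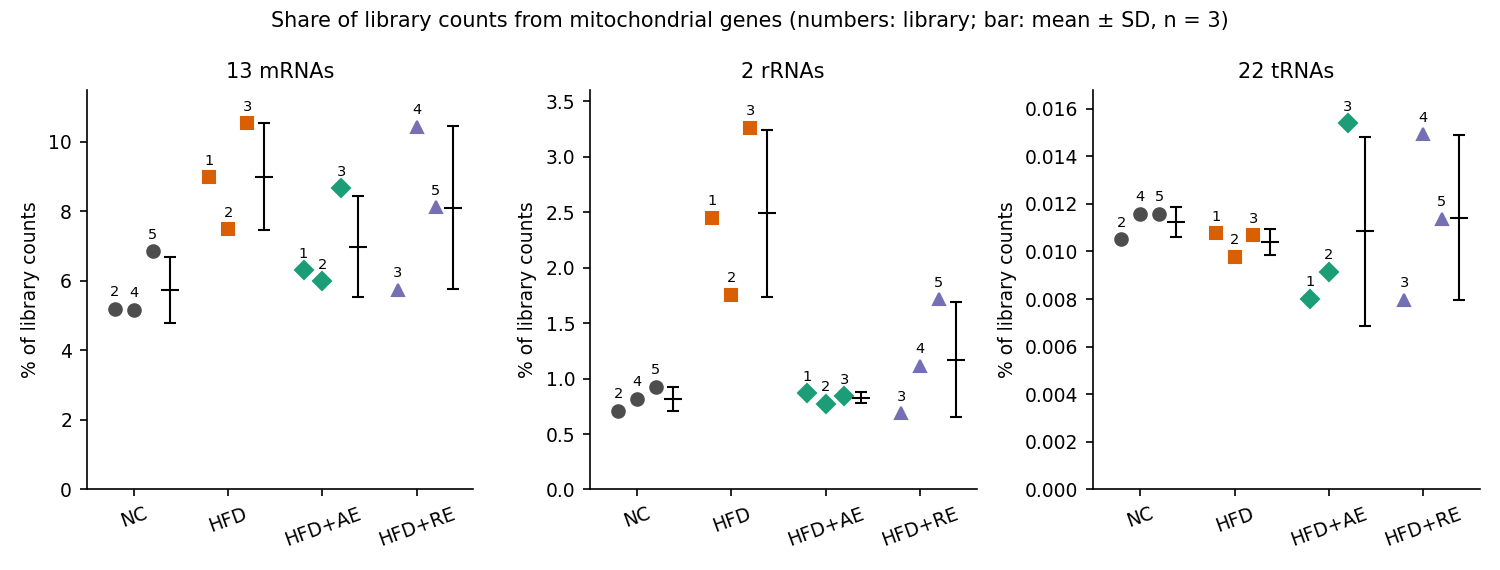
Share of each library's counts (vertical axes, percent) held by the mitochondrial mRNAs, rRNAs and tRNAs, by group; each point is 1 library, numbered, and the bars are mean ± SD (n = 3). The rRNA share of the HFD libraries, 1.76 to 3.26%, is above that of all other libraries.

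Ratios within the mitochondrial counts do not use the counts of nuclear genes. They may still depend on how reads shared with nuclear copies were counted, as 62.2% of mt-Nd4 and 51.1% of mt-Co1 windows were shared. The ratio of rRNA to mRNA counts was 0.136, 0.158 and 0.135 in NC 2, 4 and 5, and 0.273, 0.235 and 0.310 in HFD 1, 2 and 3. The HFD+AE libraries had 0.137, 0.129 and 0.0973, and the HFD+RE libraries 0.119, 0.107 and 0.211, in library order. HFD lay above every other library by this ratio, and HFD+RE 5 came next. The tRNA counts per 1000 mRNA counts went the other way, from 1.69 to 2.24 in NC, 1.01 to 1.31 in HFD, 1.27 to 1.78 in HFD+AE and 1.39 to 1.43 in HFD+RE; here NC and HFD did not overlap. How far rRNA enters a library depends on its preparation, and whether poly(A) RNA was selected or rRNA removed is not given in the sources used here. Rn7sk, a small nuclear RNA without a poly(A) tail, also rose in HFD against NC, from 1.22 ± 0.494 to 6.78 ± 0.503 CPM (SD, n = 3, edgeR adjusted p = 0.0045). Its list held 16 RNAs that mostly lack such a tail, histone genes among them. Of these, 5 had no count in HFD and 6 had none in each other group. Only 6 were tested in HFD against NC, of which Rn7sk alone was called and 5 had estimates above 0 (median log2 change 0.60). Of all genes tested, 8.38% were called higher in this comparison and 7.19% lower. Malat1, an RNA kept in the nucleus, went from 759 ± 106 to 1506 ± 229 CPM (adjusted p = 0.046), 1 of 2 that rose among 4 nuclear-retained RNAs tested, of which 2 had estimates above 0. Its part and that of Rn7sk in the rRNA result were not tested.

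Of the 37 genes, 17 passed the low-count filter: the 13 mRNAs, both rRNAs and the tRNA genes mt-Tp and mt-Tc. Each was tested over all 18305 genes that passed, with edgeR's quasi-likelihood F-test and Benjamini-Hochberg adjustment, and called at an adjusted p under 0.05. All adjusted p-values below are from this test unless DESeq2 is named.

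In HFD against NC, the comparison of diets, 5 of the 17 genes rose and none fell: mt-Rnr2, mt-Nd4l, mt-Nd3, mt-Co2 and mt-Co3. Over all genes tested, 15.6% were called in this comparison, 8.38% higher and 7.19% lower. Leaving out NC 2, NC 4, HFD 1 or HFD 3 lowered the count to 2, and mt-Rnr2 and mt-Nd4l were called without any one of these libraries. Estimates were above 0 for 15 of the 17 genes, with a median log2 change of 0.61 against 0.01 over all genes tested. The groups did not overlap for 9 of the 17, 8 higher and 1 lower in HFD, against 46% of all genes (23.9% higher and 22.1% lower). Of the 5 that rose, 4 belong to the nearly empty block of 6 mRNAs. None of the 7 other mRNAs was called by edgeR or DESeq2, with 2 at an unadjusted p under 0.05 (mt-Nd4 and mt-Cytb). DESeq2 called 4134 of 21003 genes over all, and 6352 of 18305 were at an unadjusted p under 0.05.

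mt-Rnr2 was the most abundant of the genes that rose. It stood at 4730, 5701 and 5995 CPM in NC 2, 4 and 5, and at 16260, 12670 and 20900 CPM in HFD 1, 2 and 3. The values were 6234, 5538 and 5774 CPM in HFD+AE 1, 2 and 3, and 4656, 7807 and 11180 CPM in HFD+RE 3, 4 and 5. All HFD libraries were above all others, by a wide gap for NC and HFD+AE and a narrow one for HFD+RE 5. The change against NC was 3.03-fold (log2 change 1.60, SE 0.30, adjusted p = 0.0084). It was called in 23 of 24 alternative analyses, and only scaling to the mitochondrial mRNA sum lost it.

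mt-Rnr1 (chrM:70-1024, plus strand), the 12S rRNA of the small ribosomal subunit, stood at 2642, 2800 and 3436 CPM in NC 2, 4 and 5 and at 5114, 4638 and 7233 CPM in HFD 1, 2 and 3. It was 2594, 2096 and 4033 CPM in HFD+AE and 1975, 4559 and 5414 CPM in HFD+RE, in library order. HFD did not overlap with NC, but its log2 change of 0.94 (SE 0.35) missed the threshold (adjusted p = 0.083). DESeq2 called it, with an adjusted p of 0.041.

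Both rRNAs are cut from the same stretch of precursor, yet their counts did not keep a fixed ratio. mt-Rnr2 counts per mt-Rnr1 count were 1.79, 2.04 and 1.75 in NC 2, 4 and 5, and 3.18, 2.73 and 2.89 in HFD 1, 2 and 3. The HFD+AE libraries had ratios of 2.4, 2.64 and 1.43, and the HFD+RE libraries 2.36, 1.71 and 2.06, in library order. HFD again lay above all other libraries, HFD+AE 2 being close behind. Group means were 1.86 ± 0.157 for NC, 2.93 ± 0.227 for HFD, 2.16 ± 0.641 for HFD+AE and 2.05 ± 0.323 for HFD+RE (SD, n = 3).

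**Figure D3:**
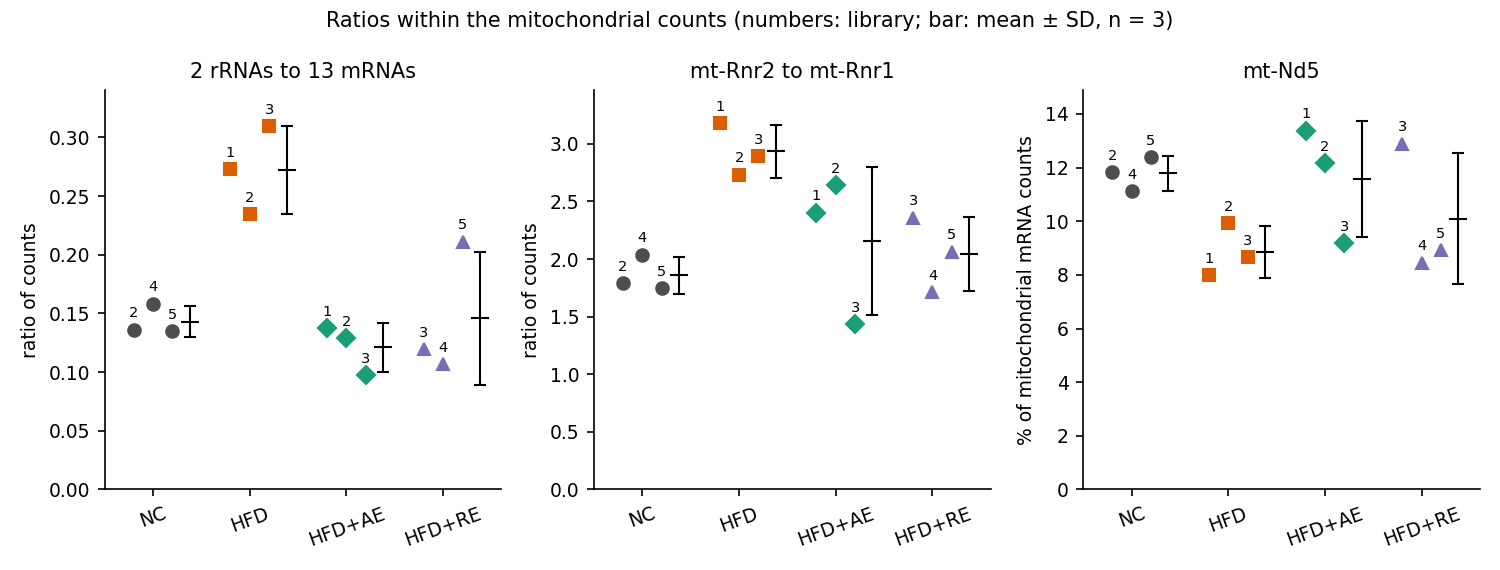
Ratio of rRNA to mRNA counts, ratio of mt-Rnr2 to mt-Rnr1 counts, and mt-Nd5 as percent of mitochondrial mRNA counts (vertical axes), by group; each point is 1 library, numbered, with mean ± SD (n = 3). The HFD libraries have the highest rRNA ratios, 0.235 to 0.310, and low mt-Nd5 shares, 7.98 to 9.92%.

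Complex I (NADH dehydrogenase) takes 7 of the 13 mRNAs. mt-Nd4l, its smallest mitochondrial subunit here at 297 bases, stood at 10.5, 8.61 and 12.4 CPM in NC 2, 4 and 5 and at 54.3, 27.4 and 53.6 CPM in HFD 1, 2 and 3. It was 7.68, 8.32 and 10.3 CPM in HFD+AE 1, 2 and 3, and 6.22, 9.97 and 16 CPM in HFD+RE 3, 4 and 5. The lowest HFD library was above the highest of all others. The change against NC was 4.29-fold (log2 change 2.10, SE 0.33, adjusted p = 0.0043), and it was called in all 24 alternatives. Gm10222, its chromosome 1 copy, had a log2 change of 0.38 (SE 0.25, adjusted p = 0.31); with the counts of the copy added, mt-Nd4l was called at 1.70.

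mt-Nd3, another small membrane subunit, stood at 4.92, 5.31 and 11.7 CPM in NC 2, 4 and 5 and at 26.4, 15.7 and 16.8 CPM in HFD 1, 2 and 3. It was 9.09, 8.32 and 12.1 CPM in HFD+AE and 7.90, 13.9 and 9.05 CPM in HFD+RE, in library order. NC 5 was high in its group, but HFD did not overlap with any other group. The log2 change against NC was 1.42 (SE 0.34, adjusted p = 0.021), and 17 of 24 alternatives called it. Its copy Gm28438 rose as well, by a log2 change of 1.45 (SE 0.38, adjusted p = 0.027).

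The other mRNAs of complex I had far higher counts, and none of them was called. mt-Nd4 (7505 ± 1050 CPM in HFD, 4443 ± 1165 in NC; SD, n = 3) had a log2 change of 0.76 (SE 0.33, adjusted p = 0.13), without overlap of the groups. For mt-Nd1 the log2 change was 0.61 (SE 0.34, adjusted p = 0.22), for mt-Nd6 0.60 (SE 0.33, adjusted p = 0.20) and for mt-Nd2 0.54 (SE 0.27, adjusted p = 0.18), and all 3 overlapped between the groups. mt-Nd6 lies on the other strand from the rest of the mRNAs and overlaps mt-Nd5 by 14 bases, and since the strand setting of the counting is not given, its reads cannot be told apart from antisense reads of the same bases.

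mt-Nd5 (chrM:11742-13565, plus strand), the largest complex I subunit of the set, had the estimate nearest to 0 of the 13 mRNAs in HFD against NC. It was 6409, 5979 and 8660 CPM in NC 2, 4 and 5 and 6254, 7324 and 7869 CPM in HFD 1, 2 and 3. The HFD+AE libraries had 8594, 7216 and 9250 CPM and the HFD+RE libraries 7162, 9774 and 7014 CPM, in library order. All groups overlapped with NC, and HFD lay within the NC range. For HFD against NC the log2 change was 0.03 (SE 0.23, adjusted p = 0.94). As a share of mitochondrial mRNA counts, it went from 11.8, 11.1 and 12.4% in NC to 7.98, 9.92 and 8.66% in HFD, 13.4, 12.2 and 9.18% in HFD+AE and 12.9, 8.45 and 8.92% in HFD+RE, in library order. NC and HFD did not overlap by this share, while HFD+AE 3, HFD+RE 4 and HFD+RE 5 lay at the level of HFD.

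mt-Cytb (chrM:14145-15288, plus strand), the only complex III subunit encoded in mitochondria, stood at 10190, 10120 and 12430 CPM in NC and 15470, 15170 and 20130 CPM in HFD, in library order. It was 12360, 11180 and 13950 CPM in HFD+AE and 10210, 20370 and 15640 CPM in HFD+RE. HFD was above NC and HFD+AE without overlap, with a log2 change against NC of 0.63 (SE 0.26, adjusted p = 0.11).

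Complex IV, cytochrome c oxidase, has 3 mitochondrial subunits that form its catalytic core. mt-Co1, the most abundant transcript of the set by mean count and rank 2 of all genes in the table, stood at 23350, 22850 and 25460 CPM in NC and at 29500, 27940 and 32660 CPM in HFD, in library order. The groups did not overlap, and the log2 change was 0.33 (SE 0.33, adjusted p = 0.49). HFD+AE 3, at 48170 CPM, and HFD+RE 4, at 52370 CPM, were far above all other libraries, which ran from 21980 to 32660 CPM.

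mt-Co2 was 27.1, 28.4 and 66.8 CPM in NC 2, 4 and 5 and 128, 61.8 and 172 CPM in HFD 1, 2 and 3. The HFD+AE libraries had 33.4, 32.7 and 55.8 CPM, and the HFD+RE libraries 49.3, 78.6 and 56.1 CPM, in library order. NC 5 lay above HFD 2, so that the groups overlapped, although the log2 change of 1.57 (SE 0.41) was called (adjusted p = 0.027). mt-Co2 was called in 16 of 24 alternatives. Its copy Gm28661 was not called, with a log2 change of 1.17 (SE 0.47, adjusted p = 0.0997), and was higher in HFD without overlap.

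mt-Co3 was 20.7, 20.2 and 26.4 CPM in NC and 111, 68.8 and 196 CPM in HFD, in library order, without overlap. HFD+AE 1 and 2 lay within the NC range at 22.1 and 22.3 CPM, but HFD+AE 3 had 143 CPM. HFD+RE 3, 4 and 5 had 25.9, 146 and 71.2 CPM. Its log2 change against NC was the largest of the set, 2.48, with an SE of 0.73 (adjusted p = 0.039), and 14 of 24 alternatives called it. The copy Gm28437 rose from 23.5 ± 1.94 to 69.5 ± 24.2 CPM (SD, n = 3; log2 change 1.56, SE 0.30, adjusted p = 0.0099).

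**Figure D4:**
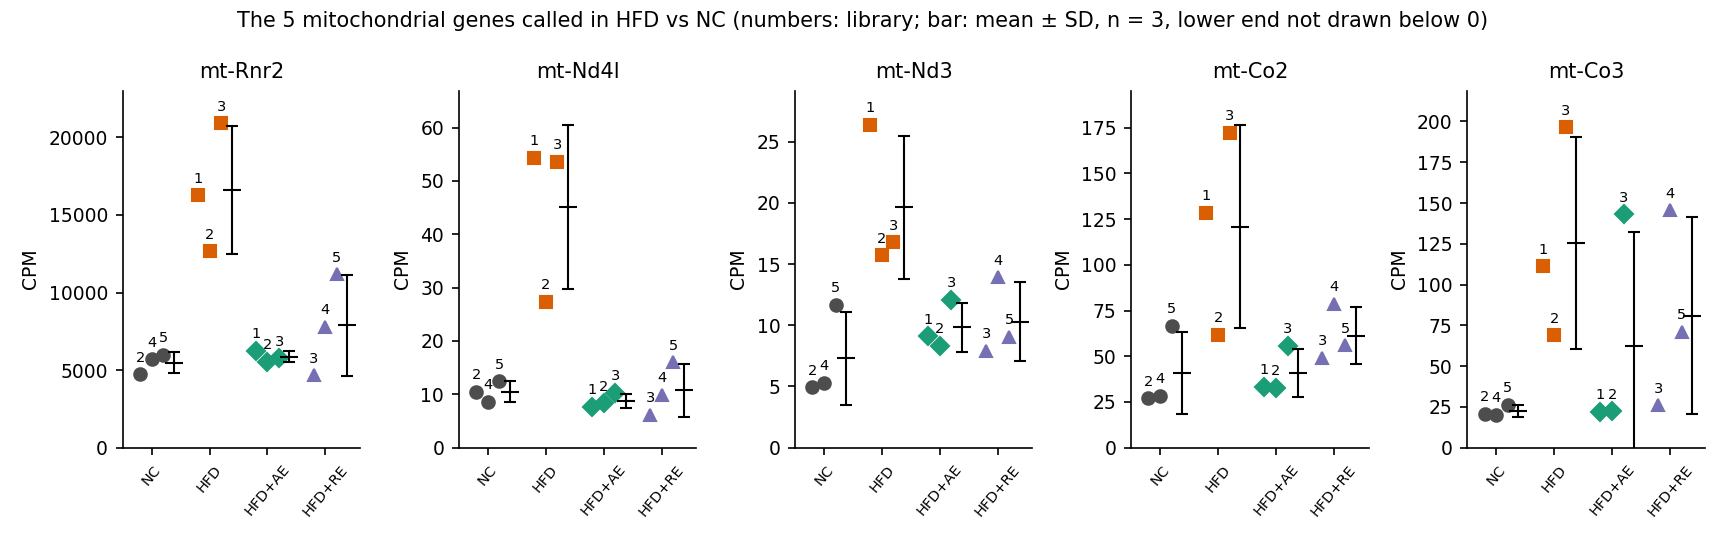
CPM (vertical axes) of the 5 mitochondrial genes that rose in HFD against NC, in all 12 libraries by group; each point is 1 library, numbered, and the bars are mean ± SD (n = 3). HFD is highest for mt-Rnr2, mt-Nd4l and mt-Nd3, while HFD+AE 3, HFD+RE 4 and HFD+RE 5 reach the HFD range for mt-Co3, and NC 5 and HFD+RE 4 reach it for mt-Co2.

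The 2 ATP synthase subunits gave no usable comparison. mt-Atp6 had 1121 and 1977 counts in NC 2 and 4 but 22072 in NC 5, and 1325 and 4145 in HFD+RE 3 and 4 but 16405 in HFD+RE 5; the other libraries lay between 1617 and 3828. Its log2 change in HFD against NC was -1.04 with an SE of 0.87 (adjusted p = 0.41). The copy Gm10925 had 8247 counts in NC 5 and 5256 in HFD+RE 5, against 2281 to 7800 in the other 10 libraries. mt-Atp8 had 2 to 36 counts in 11 libraries and 114 in HFD+RE 4.

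Among the 22 tRNAs, 12 had no count in any library and 10 had at least 1. mt-Tp, the proline tRNA (chrM:15356-15422, minus strand), supplied 99.4 to 99.9% of all tRNA counts, with 4075 to 9067 counts in a library. mt-Tc, the cysteine tRNA (chrM:5192-5257, minus strand), had 3 to 37 counts, and no other tRNA gene had more than 10 in a library. The genes of both are shown in the sense of the tRNA, with the anticodon in capitals; mt-Tp has 67 bases and mt-Tc 66.
mt-Tp: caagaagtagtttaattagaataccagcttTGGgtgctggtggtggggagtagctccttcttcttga
mt-Tc: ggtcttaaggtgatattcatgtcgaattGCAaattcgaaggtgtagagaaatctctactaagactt

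mt-Tp is the last annotated gene, next to the control region, and counting without strand would also take in reads from the opposite strand. It stood at 109, 120 and 118 CPM in NC 2, 4 and 5, at 93.4, 96.2 and 91.7 CPM in HFD 1, 2 and 3, at 81.6, 90.6 and 178 CPM in HFD+AE 1, 2 and 3, and at 77.0, 165 and 110 CPM in HFD+RE 3, 4 and 5. HFD was below NC without overlap, with a log2 change of -0.31 (SE 0.30, adjusted p = 0.48), the opposite sign to both rRNAs. HFD+AE 3 and HFD+RE 4 were again the highest libraries, as they were for mt-Co1. mt-Tc was highest in the same pair, at 34 and 37 counts, against 3 to 20 in the other libraries.

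In HFD+AE against HFD, mt-Nd4l alone of the 17 genes passed, in a comparison with few calls. It fell by 2.36 on the log2 scale (SE 0.34, adjusted p = 0.038), to 8.77 ± 1.36 CPM against 10.5 ± 1.90 CPM in NC (SD, n = 3). Of all genes tested, 0.0492% were called (9 genes), 0.0164% higher and 0.0328% lower. The call was made in 13 of 24 alternatives. It was lost when any 1 of NC 2, NC 4, HFD 1, HFD 3, HFD+AE 1, HFD+AE 2 or HFD+RE 4 was left out, with adjusted p-values of 0.058 to 0.18 for mt-Nd4l. This comparison uses the same HFD libraries as HFD against NC, so the signs of the 2 are not independent.

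Estimates were below 0 for 13 of the 17 genes, and 6 did not overlap between the groups, all lower in HFD+AE. Of all genes tested, 32% did not overlap, 15.8% higher and 16.3% lower. These were mt-Nd4l, mt-Rnr2 (log2 change -1.51, SE 0.30, adjusted p = 0.057), mt-Co2 (-1.57, SE 0.41, adjusted p = 0.063), mt-Nd3 (-1.0, SE 0.34, adjusted p = 0.10), mt-Rnr1 (-0.96, SE 0.35, adjusted p = 0.12) and mt-Cytb (-0.44, SE 0.26, adjusted p = 0.30). DESeq2 called 4 of the 17, namely mt-Rnr2, mt-Co2, mt-Nd3 and mt-Nd4l. Over all genes it called 2047 of 19787. mt-Nd5 (log2 change 0.22) and mt-Co1 (0.12) had estimates above 0.

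In HFD+RE against HFD, edgeR called none of the 17 genes, with 4 at an unadjusted p under 0.05, as were 1605 of all 18305 genes. Of all genes, 0.0109% were called (2 genes, 0.00546% higher and 0.00546% lower). DESeq2 called mt-Nd4l and mt-Rnr2, and 186 of 18572 genes over all. mt-Nd4l had a log2 change of -2.07 (SE 0.33, adjusted p = 0.064), mt-Rnr2 -1.08 (SE 0.30, adjusted p = 0.30), mt-Nd3 -0.93 (SE 0.34, adjusted p = 0.43) and mt-Co2 -0.98 (SE 0.40, adjusted p = 0.50). The first 3 did not overlap between the groups, all lower in HFD+RE; of all genes, 14.1% did not overlap, 7.15% higher and 6.99% lower. The other members overlapped, and the median log2 change of the 17 was -0.14 against 0.04 over all genes. The HFD libraries are again those of the other 2 comparisons.

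**Figure D5:**
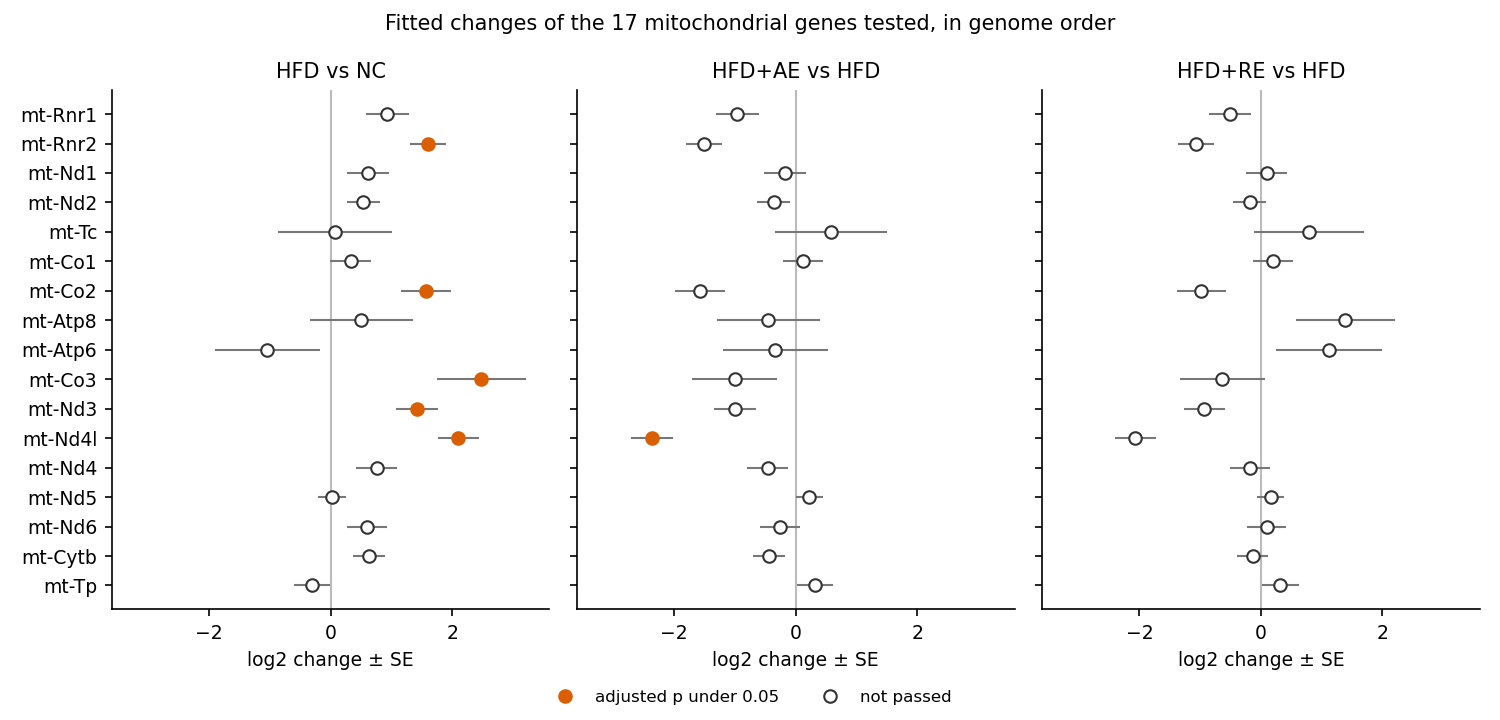
Log2 change with its SE (horizontal axes) of the 17 tested mitochondrial genes in genome order, for HFD against NC, HFD+AE against HFD and HFD+RE against HFD; filled points passed an adjusted p of 0.05. The 5 filled points in the first panel run from 1.42 to 2.48, and mt-Nd4l at -2.36 is the only one in the second.

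HFD+RE against HFD+AE, the comparison of the 2 exercise kinds, gave no call by edgeR among the 17 genes nor among all 18305 (0%). At an unadjusted p under 0.05 there was 1 member, mt-Atp8, and DESeq2 called no member and 24 of 16141 genes over all. All 17 overlapped between the groups, where 11.3% of all genes did not (5.88% higher, 5.4% lower).

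In HFD+AE against NC, edgeR and DESeq2 called no member, and 0 had an unadjusted p under 0.05. By edgeR 1.38% of all genes were called (0.901% higher, 0.481% lower), and by DESeq2 781 of 18572. No member was without overlap, against 21.8% of all genes (12.1% higher, 9.74% lower). In HFD+RE against NC, edgeR and DESeq2 again called none, with 2 (mt-Atp8 and mt-Co3) at an unadjusted p under 0.05. By edgeR 3.96% of all genes were called (2.67% higher, 1.28% lower), and by DESeq2 1907 of 17964. All members overlapped there, against 26.1% of all genes that did not (13.7% higher, 12.4% lower). All 17 estimates in HFD+RE against NC were above 0, with a median of 0.53 and a range of 0.02 to 1.89. A p above the threshold does not show that the groups were alike: for mt-Rnr2 in HFD+RE against NC the log2 change was 0.53 with an SE of 0.29.

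The libraries that stand apart weighed on these counts. HFD+AE 3 and HFD+RE 3 were picked from these same data as nearer to the other exercise group. Leaving out both narrows each exercise group and sets the 2 apart by that choice. The growth in calls below is therefore no separate support for a difference. Without HFD+AE 3 and HFD+RE 3, which leaves 2 libraries in each exercise group, 8 members were called in HFD against NC (with mt-Rnr1, mt-Nd4 and mt-Cytb added to the 5), 6 in HFD+AE against HFD, 7 in HFD+RE against HFD+AE and 8 in HFD+RE against NC. Calls over all 18902 genes also grew in that fit, to 6258 in HFD against NC, 4253 in HFD+AE against HFD, 4170 in HFD+RE against HFD+AE and 5991 in HFD+RE against NC. The mRNA share in HFD+RE against HFD+AE went from a log2 ratio of 0.21 to 0.59.

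Nuclear-encoded subunits of the respiratory complexes, listed with the ATP synthase inhibitor Atpif1, also had mostly positive estimates in HFD against NC (64 of 77). Of the 77 tested, 10 rose and none fell, with a median log2 change of 0.67, where 8.38% of all genes were called higher and 7.19% lower, so that the share called was near that of all genes (15.6%). DESeq2 called 24 higher and 2 lower, and 4134 of 21003 genes over all. Without HFD+AE 3 and HFD+RE 3, 55 of the 77 rose and 4 fell, where 6258 of 18902 genes were called over all. By complex, 6 of 36 rose in complex I, 0 of 4 in complex II, 0 of 9 in complex III, 2 of 12 in complex IV and 2 of 16 in complex V, with medians of 0.73, 0.20, 0.59, 0.77 and 0.68. Of the 2 counted under complex V, 1 was the inhibitor Atpif1 (4.33 ± 0.756 against 2.15 ± 0.74 CPM, adjusted p = 0.048). The edgeR counts of 0 stand beside 3 genes of complex II and 6 of complex III at an unadjusted p under 0.05, and 1 lower and 3 higher by DESeq2. Over all genes, 6352 of 18305 were at an unadjusted p under 0.05. Ndufb4 (60.4 ± 8.86 against 29.0 ± 6.08 CPM, adjusted p = 0.035) and Ndufs4 (81.0 ± 16.9 against 42.6 ± 9.33, adjusted p = 0.037) of complex I were among the 10 that rose. So was Cox7c (236 ± 42.0 against 119 ± 14.8, adjusted p = 0.038) of complex IV. Atp5l, a subunit of the membrane part of ATP synthase, rose as well (72.0 ± 12.6 against 38.5 ± 7.72 CPM, adjusted p = 0.023), and the values are mean ± SD with n = 3. In HFD+AE against HFD none of the 77 passed by edgeR, with 27 at an unadjusted p under 0.05. DESeq2 called 3 of them higher and 6 lower, and the median was -0.50. Over all genes, 4826 of 18305 were at an unadjusted p under 0.05 there, and DESeq2 called 2047 of 19787. Without HFD+AE 3 and HFD+RE 3, 4 of the 77 were called higher and 52 lower in that comparison, where 4253 of 18902 genes were called. In HFD+RE against HFD+AE, that fit called 58 higher and 1 lower, and 4170 of 18902 genes over all. With all libraries none of the 77 was called there (0 by DESeq2, which called 24 of 16141 genes over all). Of the 77, 11 were at an unadjusted p under 0.05, as were 1467 of all 18305 genes.

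Genes that make, process and maintain mitochondrial RNA and DNA moved in both directions. Of 114 tested in HFD against NC, 5 rose and 9 fell, with a median log2 change of -0.10. The share of calls was below that of all genes (15.6%). Without HFD+AE 3 and HFD+RE 3, 13 of the 114 rose and 24 fell, where 6258 of 18902 genes were called over all. Polrmt, the mitochondrial RNA polymerase, was 18.6 ± 0.860 CPM in HFD and 19.8 ± 2.97 in NC (log2 change -0.10, SE 0.22, adjusted p = 0.78). Tfam, which packs mitochondrial DNA and starts its transcription, was 41.7 ± 5.05 and 40.6 ± 6.31 CPM (log2 change 0.04, SE 0.17, adjusted p = 0.88). The transcription list of 9 genes held 1 that rose, Mterf2 of the mitochondrial termination factor family, from 0.806 ± 0.280 to 2.68 ± 0.480 CPM (adjusted p = 0.015).

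Among 21 genes for RNA processing and stability, 1 rose and 2 fell. Lrpprc, which stabilises mitochondrial mRNAs, fell from 138 ± 4.92 CPM in NC to 76.4 ± 13.9 CPM in HFD (log2 change -0.86, SE 0.24, adjusted p = 0.033), and Ptcd1, an RNA-binding protein of mitochondria, fell from 11.3 ± 0.304 to 7.49 ± 0.485 CPM (adjusted p = 0.043). Hsd17b10, a subunit of the enzyme that cuts precursors at the 5′ end of tRNAs, rose from 114 ± 4.06 to 251 ± 40.9 CPM (adjusted p = 0.018). Of 15 genes for rRNA maturation and the assembly of the mitochondrial ribosome, Mettl17 rose by a log2 change of 0.51 (adjusted p = 0.042) and Trmt61b, an RNA methyltransferase, fell by 1.08 on the log2 scale (adjusted p = 0.028).

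On the tRNA side, Nsun2, a tRNA methyltransferase, was the 1 of 18 maturation genes that fell (80.1 ± 2.80 to 43.2 ± 7.68 CPM, adjusted p = 0.012). Lars2, which charges the mitochondrial leucine tRNAs, was the 1 of 23 genes called higher on the list of tRNA synthetases and related enzymes. It went from 660 ± 184 to 1698 ± 94.0 CPM (log2 change 1.36, SE 0.28, adjusted p = 0.012). Only 7 of the 23 estimates were above 0, with a median log2 change of -0.12. For DNA replication, 1 of 18 rose and 4 fell; Polg, the mitochondrial DNA polymerase, fell from 40.6 ± 2.75 to 22.4 ± 5.65 CPM (adjusted p = 0.025), while Mpv17, an inner membrane protein needed to maintain mitochondrial DNA, rose from 15.5 ± 1.17 to 37.2 ± 5.85 CPM (adjusted p = 0.0081).

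Regulators of mitochondrial biogenesis showed 1 call among 10 tested. Yy1 fell from 95 ± 1.56 to 63.3 ± 10.6 CPM (adjusted p = 0.028). Ppargc1a, the coactivator that drives biogenesis, had a log2 change of -0.29 (SE 0.25, adjusted p = 0.43), Esrra 0.22 (SE 0.25, adjusted p = 0.55) and Nrf1 -0.07 (SE 0.18, adjusted p = 0.81). In HFD+AE against HFD, none of the 114 genes of these lists passed by edgeR, with 24 at an unadjusted p under 0.05. DESeq2 called 7 of them higher and 2 lower. Over all genes, 4826 of 18305 were at an unadjusted p under 0.05, and DESeq2 called 2047 of 19787. Without HFD+AE 3 and HFD+RE 3, 17 of the 114 were called higher and 7 lower, where 4253 of 18902 genes were called over all. In HFD+RE against HFD none of the 114 passed by edgeR or DESeq2, with 7 at an unadjusted p under 0.05, as were 1605 of all 18305 genes. DESeq2 called 186 of 18572 genes over all there.

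Marker genes of several liver cell types differed along with the mitochondrial genes between the diets. In HFD against NC, where 8.38% of all genes were called higher and 7.19% lower, 7 of 14 lymphocyte markers rose, and their summed level was 46.6 to 202 CPM in HFD against 31.7 to 48.6 CPM in NC. Stellate cell markers rose for 5 of 8, with summed levels of 263 to 362 against 138 to 157 CPM. Hepatocyte markers fell for 5 of 12, from 137000 to 149000 CPM in NC to 69800 to 104000 CPM in HFD. Endothelial markers fell for 3 of 9, from 268 to 335 CPM to 141 to 204 CPM. Of 10 macrophage markers 1 was called lower, near the share of all genes, with 3 lower by DESeq2 and 4 at an unadjusted p under 0.05. Only 1 of the 10 macrophage estimates was above 0 (median log2 change -1.11). Their summed levels were 124 to 293 CPM in HFD against 281 to 455 CPM in NC. Erythroid markers were mostly higher: 6 of 7 estimates were above 0 (median log2 change 1.22), with summed levels of 275 to 498 CPM in HFD against 160 to 302 CPM in NC, although the 1 called was Alas2, an enzyme of haem synthesis, which fell. edgeR and DESeq2 called none of 5 cholangiocyte markers, with 0 at an unadjusted p under 0.05. DESeq2 called 4134 of 21003 genes over all in HFD against NC, and 6352 of 18305 were at an unadjusted p under 0.05. No marker of these lists was at 0 in a group, apart from those of muscle, heart and fat. In HFD+AE the summed levels were 128000 to 143000 CPM for hepatocyte, 40 to 42.9 CPM for lymphocyte, 255 to 261 CPM for stellate and 261 to 389 CPM for endothelial markers. Without HFD+AE 3 and HFD+RE 3, 9 lymphocyte and 7 stellate markers were called higher in HFD than in NC. In that fit 6 endothelial and 3 macrophage markers were called lower, with 2 hepatocyte markers higher and 6 lower. Over all genes it called 6258 of 18902. In HFD+AE against HFD, edgeR called no marker of these lists with all libraries. At an unadjusted p under 0.05 were 13 lymphocyte, 7 endothelial and 6 hepatocyte markers, with 11 lower, 5 higher and 4 higher by DESeq2. Over all genes, 4826 of 18305 were at an unadjusted p under 0.05, and DESeq2 called 2047 of 19787. Without the pair, edgeR called 8 lymphocyte markers lower, 7 endothelial markers higher and 4 hepatocyte markers higher, and 4253 of 18902 genes over all. The part of these shifts in the mitochondrial results was not tested.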

How the data were processed

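Whole-number read counts per gene of 12 liver RNA-seq libraries form 1 deposited table, not normalized by the authors. Per the submitters' processing notes, the tools were fastp, HISAT2 2.2.1, featureCounts 2.0.6 and DESeq2 1.40.1, with the mm10 build. The sources used here state no strand, read pairing or multi-mapping setting; 72.3% of counts from 1 to 10 are even, as when both reads of a pair are counted. No 2 libraries agreed within sampling noise (smallest chi-square per degree of freedom 69.4).

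All 12 libraries entered 1 edgeR 4.0.16 model (R 4.3.3; TMM scaling, filterByExpr, robust quasi-likelihood F-test, a mean per group), adjusted over the 18305 genes left. On simulated counts for HFD against NC (17837 genes), 17.2% of genes changed by a log2 fold of 1 and 68.7% of those changed by 2 were called. Shares, ratios and levels per kilobase are descriptions without a test. The mitochondrial genes and the gene lists were chosen with earlier results of these data known. Named were all mRNAs and rRNAs, tRNAs with a mean of at least 10 counts, up to 3 called genes per other list, 7 fixed regulators and the copies of genes described. Sequence comparisons used GENCODE M21 transcripts (windows of 50 bases). Alternatives included other scalings, DESeq2 1.42.0, no filter, a replicate block, each library left out and, added after seeing the data, adding the nuclear copies and leaving out NC 5 with HFD+RE 5.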

Additional observations from a re-analysis of the deposited data

How the results depend on the processing

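No mitochondrial gene called in the main analysis changed sign in any of its 24 alternatives in the comparison where it was called; some estimates that were not called did, as did small differences in share, such as the mRNA share in HFD+RE against HFD, a log2 ratio of -0.15 that was 0.040 over the effective library size and 0.043 without HFD+RE 3, and the tRNA share in HFD+AE against HFD, 0.060 that was -0.28 without HFD+AE 3. Mitochondrial genes called in HFD against NC (5) numbered 1 when scaled to the mitochondrial mRNA sum, 2 with the replicate block, 3 with the correlation of level with gene length as a covariate, 8 without HFD+AE 3 and HFD+RE 3, and 2 to 6 leaving out 1 library; the lowest count came without NC 2, NC 4, HFD 1 or HFD 3. For HFD+AE against HFD (1) the count was 0 with the mitochondrial mRNA scaling, the replicate block, the length covariate or the nuclear copies added, 2 with upper-quartile scaling, no low-count filter or NC 5 and HFD+RE 5 left out, 3 with only the 2 groups, 4 with DESeq2, 6 without HFD+AE 3 and HFD+RE 3, and 0 to 4 leaving out 1 library (4 without HFD+RE 3, 3 without HFD 2, 2 without HFD+RE 5, and 0 without NC 2, NC 4, HFD 1, HFD 3, HFD+AE 1, HFD+AE 2 or HFD+RE 4). For HFD+RE against HFD (0) it was 1 without the filter or with the length covariate, 2 with DESeq2, and 0 to 1 leaving out 1 library (1 without HFD 2 or HFD+RE 5). Without HFD+AE 3 and HFD+RE 3 it was 7 for HFD+RE against HFD+AE and 8 for HFD+RE against NC, the latter 0 to 2 leaving out 1 library (2 without HFD+RE 3, 1 without NC 5). Calls over all genes moved in the same fits. In HFD+AE against HFD they numbered 9, and 61 with upper-quartile scaling, 953 without the filter and 134 without NC 5 and HFD+RE 5. They were 649 with only the 2 groups, 2047 with DESeq2, 1930 without HFD+RE 3, 1691 without HFD 2 and 124 without HFD+RE 5. In HFD+RE against HFD they were 2, and 43 without the filter, 21 with the length covariate and 186 with DESeq2. Leaving out HFD 2 gave 53 there, and leaving out HFD+RE 5 gave 3. The cause was not tested.

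The log2 ratio of the mRNA share in HFD+RE against HFD+AE was 0.59, and of the tRNA share 0.61, without HFD+AE 3 and HFD+RE 3. The tRNA share in HFD against NC (-0.11) was -0.030 over the counts of other genes and -0.30 over the effective library size. Same-numbered libraries did not deviate together (correlations from -0.50 to 0.16 over 9 pairs), so the replicate block rests on a shared number only. Over all genes, those called in HFD against NC numbered 2851, 325 with the block, 1119 with the length covariate, 387 with the mitochondrial mRNA scaling, 411 without HFD 3, 488 without HFD 1, 4928 with only the 2 groups and 6258 without HFD+AE 3 and HFD+RE 3. Depth limits mt-Atp8, mt-Tc and the other tRNAs except mt-Tp.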

Other observations

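Neighbouring genes at the far end of the heavy-strand transcript did not keep a fixed ratio. mt-Cytb counts per mt-Nd5 count were 1.59, 1.69 and 1.44 in NC 2, 4 and 5 and 2.47, 2.07 and 2.56 in HFD 1, 2 and 3. The HFD+AE libraries had 1.44, 1.55 and 1.51, and the HFD+RE libraries 1.43, 2.08 and 2.23, in library order. HFD lay above NC and HFD+AE without overlap, and HFD+RE 4 and 5 reached the HFD range while HFD+RE 3 did not.

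Single libraries held unusual counts in the nuclear copies. HFD+RE 4 had 7143 counts in Gm28661, the copy of mt-Co2, and 6513 in Gm29216, the copy of part of mt-Co1, against no more than 3602 and 3518 in the other libraries. NC 5, which had the highest mt-Atp6 count, also had 5293 counts in Gm13340, an annotated copy of part of mt-Co1, against 527 to 1956 elsewhere. Rn7sk stood at 7.06, 6.2 and 7.08 CPM in HFD 1, 2 and 3, the libraries with the highest rRNA shares, at 2.95, 5.1 and 3.96 CPM in HFD+RE 3, 4 and 5, and at no more than 3.79 CPM in the other libraries.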
